A study of Arabidopsis thaliana with 9 samples.

Results

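Nuclear RNA of Arabidopsis thaliana leaves was examined for 8 genes that maintain DNA methylation and heterochromatin, 8 of 32399 nuclear genes counted. The genes were chosen by name and locus: MET1 (AT5G49160), VIM1 (AT1G57820), DDM1 (AT5G66750, listed as CHR1 in the reference gene table), CMT2 (AT4G19020), CMT3 (AT1G69770), SUVH4 (AT5G13960), SUVH5 (AT2G35160) and SUVH6 (AT2G22740). Leaves came from 3-week-old plants grown at 22 °C under days of 16 h and nights of 8 h. Nascent RNA was taken by nuclear run-on (NRO), where polymerases already engaged on a gene extend their transcripts with biotin-UTP so that these can be captured on streptavidin, and steady-state RNA was taken from nuclei (RNA). Each assay had 1 library of Col-0, the wild-type accession, 1 of nrpd1-3, a mutant of the largest subunit of RNA polymerase IV, and 1 of nrpe1-11, a mutant of the largest subunit of RNA polymerase V. No other allele or treatment is given for any of the 6 libraries, and the number of plants behind a library is not given in the sources used here. The comparison asks how nascent and steady-state RNA change when either polymerase is impaired.

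Plant DNA carries methylcytosine in CG, CHG and CHH contexts, where H is any base but G. CG methylation is copied after replication by MET1 with help from VIM proteins, and the remodeller DDM1 gives the methyltransferases access to nucleosomes in heterochromatin. CHG methylation by CMT3 and CHH methylation by CMT2 form a loop with histone H3K9 methylation, because the chromomethylases bind methylated H3K9 and the SUVH4, SUVH5 and SUVH6 enzymes bind methylated DNA. Pol IV and Pol V act in a separate route, RNA-directed DNA methylation, which places methylation through small RNAs.

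Sequencing depth sets what can be seen for these genes. NRO libraries held 2687149 gene counts in Col-0, 8185846 in nrpd1-3 and 7504294 in nrpe1-11, and RNA libraries held 709905, 386011 and 493080. The Col-0 NRO library stood apart: 79.8% of its reads aligned more than once, against 48.4% and 47.8% in NRO of nrpd1-3 and nrpe1-11, and 90.3% to 92.7% in RNA. Levels are given as CPM, each count divided by a TMM-scaled library size of its assay. In Col-0, nrpd1-3 and nrpe1-11, respectively, 3 counts equal 1.49, 0.34 and 0.322 CPM (NRO) or 5.77, 6.13 and 5.64 CPM (RNA). Leaf mesophyll markers summed to between 1871 and 3675 CPM in all 6 libraries, while 4 of 6 root and flower markers were at 0 throughout. The others were COBL9, with 10, 15 and 2 NRO counts in the same order of genotypes, and AG, with 1 count in NRO of nrpe1-11. Root and flower markers summed to 4.98, 1.70 and 0.322 CPM in NRO. For NRPD1 itself the NRO libraries gave 9, 94 and 19 counts, and the RNA libraries 0, 8 and 3. NRPE1 had 24, 81 and 82 NRO counts and 6, 6 and 8 RNA counts. Neither targeted gene was depleted in the library labelled as its mutant, and counts over a whole gene do not test the allele, so nrpd1-3 and nrpe1-11 below mean the libraries labelled as such.

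With 1 library per group there is no replicate check within an assay. A size rule was used there: the log2 ratio (prior count 2) had to reach 1 or -1 and the 95% counting interval of the ratio had to leave out 1. Genes entered if any library of the assay held 20 or more counts. Intervals cover counting error only. PCR copies of 1 molecule cannot be recognised and would make the intervals too narrow. In NRO 5 of 8 genes passed the count filter (MET1, CMT2, CMT3, SUVH4 and SUVH6), and in RNA 1 of 8 (CMT2). VIM1, DDM1 and SUVH5 passed neither. Genes are compared across libraries and not with each other, because counts were not divided by gene length.

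**Figure D1:**
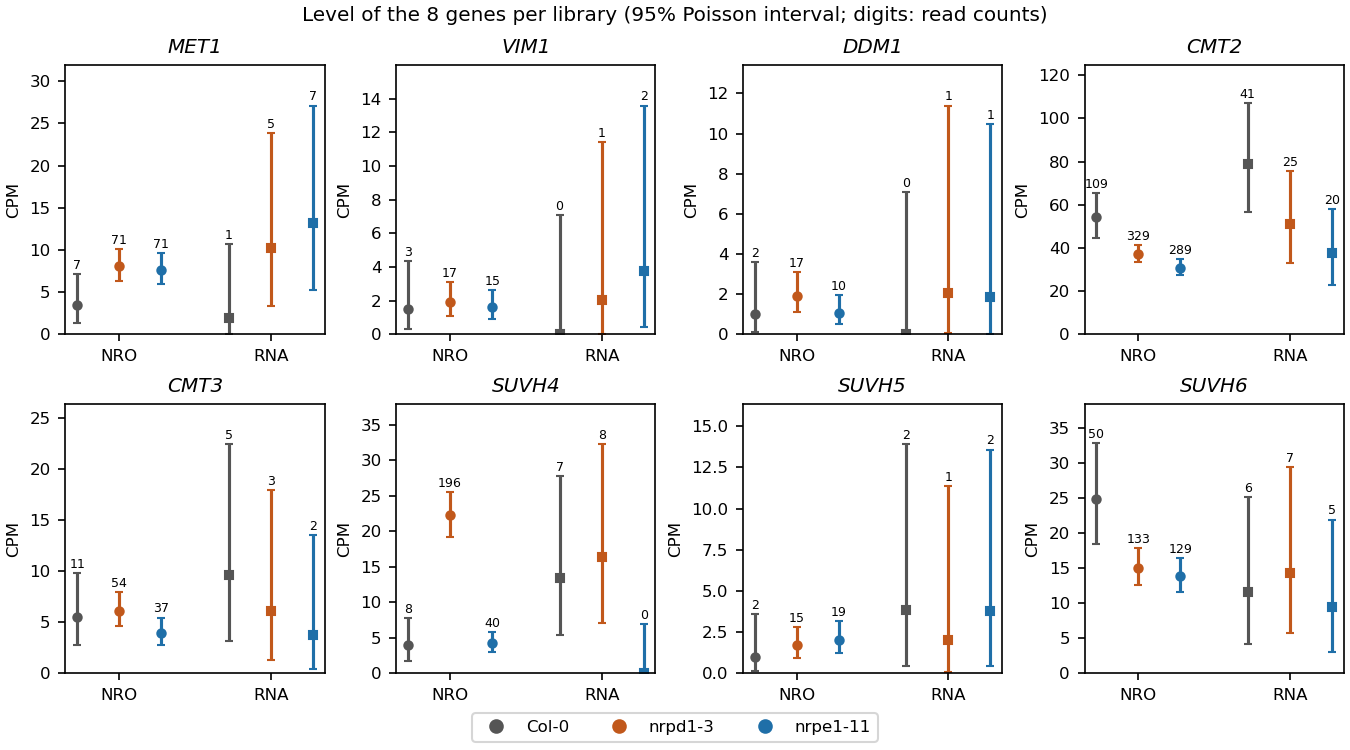
Level of each gene in CPM (vertical axis, linear from 0) in the 3 NRO libraries (circles) and 3 RNA libraries (squares), coloured by genotype, with 95% Poisson intervals and the read count printed above each point. SUVH4 has its high NRO value in nrpd1-3 alone (22.2 CPM), and the CMT2 level is highest in Col-0 in each assay.

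Among the genes of CG maintenance, MET1, the methyltransferase that copies CG methylation, was higher in NRO of both mutants. MET1 stood at 3.48 CPM (95% Poisson interval 1.40 to 7.18, 7 counts) in NRO of Col-0, 8.06 CPM (6.29 to 10.2, 71 counts) in nrpd1-3 and 7.62 CPM (5.95 to 9.61, 71 counts) in nrpe1-11. The mutant libraries were close to each other and above Col-0, with intervals that overlapped that of Col-0. The NRO ratio to Col-0 was 2.31 in nrpd1-3 (1.07 to 5.96, log2 ratio 1.14) and 2.19 in nrpe1-11 (1.01 to 5.63, log2 ratio 1.07), which met the size rule at its edge in each mutant. The MET1 ratio between the mutants was 0.945 (0.671 to 1.33). RNA of MET1 gave 1, 5 and 7 counts in Col-0, nrpd1-3 and nrpe1-11, too few for the rule, with Col-0 again lowest. After thinning to equal total counts the MET1 log2 ratio was 0.57 in nrpd1-3 and 1.07 in nrpe1-11, as large in the latter as before, and the rule was no longer met in either mutant. Thinning drew reads at random and was not repeated, so the MET1 shift includes the noise of the draw.

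VIM1, a reader of hemimethylated CG sites that recruits MET1, gave 3, 17 and 15 counts in the NRO libraries, or 1.49, 1.93 and 1.61 CPM. DDM1 had 2, 17 and 10 NRO counts, or 0.995, 1.93 and 1.07 CPM. Col-0 was at or under the 3-count floor for both genes, so no fold is given, and RNA held at most 2 counts of either in any library. Summed over MET1, VIM1 and DDM1, NRO gave 12, 105 and 96 counts, or 5.97, 11.9 and 10.3 CPM. The sum was higher in nrpd1-3 by a ratio of 1.995 (1.095 to 3.98), while in nrpe1-11 the ratio of 1.72 had an interval that included 1 (0.943 to 3.45). With library totals, tried after seeing the data, these ratios were 2.87 in each mutant and both intervals lay above 1. Over the 13 markers of dividing cells, in which CG maintenance genes are known to be expressed, the sums in the same order were 29.9, 39.3 and 44.1 CPM for NRO and 30.8, 30.7 and 32.0 CPM for RNA. Of those markers 1 of 7 that passed the filter was higher in NRO of each mutant, where 9.31% and 12.1% of all genes were. It was CDKB2;1, a mitotic kinase gene with 0, 48 and 61 NRO counts and 3, 1 and 1 RNA counts, while CYCB1;1, a mitotic cyclin gene, had 4, 12 and 0 NRO counts. CDKB2;1 passed the filter only through the mutant libraries, so nothing is read from that call. The part of dividing cells in the MET1 values was not tested, and in bulk leaves fewer cells of a type and less RNA per cell cannot be told apart.

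Of the chromomethylases, CMT2, which methylates CHH sites in heterochromatin, gave the most counts of the 8 genes in each library and was lower in the mutants. CMT2 stood at 54.3 CPM (44.5 to 65.4, 109 counts) in NRO of Col-0, 37.3 CPM (33.4 to 41.6, 329 counts) in nrpd1-3 and 31.0 CPM (27.5 to 34.8, 289 counts) in nrpe1-11. In RNA it stood at 78.9 CPM (56.6 to 107, 41 counts), 51.1 CPM (33.1 to 75.5, 25 counts) and 37.6 CPM (23.0 to 58.1, 20 counts). Both assays had the order Col-0, nrpd1-3, nrpe1-11, and the intervals of Col-0 lay above those of both mutants in NRO but overlapped them in RNA. NRO ratios to Col-0 were 0.688 (0.553 to 0.863) in nrpd1-3 and 0.571 (0.457 to 0.719) in nrpe1-11, neither reaching 2-fold. RNA ratios were 0.648 (0.378 to 1.09) and 0.477 (0.265 to 0.832), and the log2 ratio of -0.996 in nrpe1-11 stopped just short of the rule. These values depend on scaling: with library totals in place of TMM the NRO log2 ratios shrank to -0.013 and -0.074, and the RNA log2 ratio of nrpd1-3 turned to 0.16. After thinning to equal total counts the RNA log2 ratios were -1.15 in nrpd1-3 and -1.66 in nrpe1-11, and both met the rule. The thinning was a random draw that was not repeated, so these shifts include the noise of the draw.

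CMT3, which methylates CHG sites, had 5.47 CPM (2.73 to 9.80, 11 counts) in NRO of Col-0, 6.13 CPM (4.603 to 7.995, 54 counts) in nrpd1-3 and 3.97 CPM (2.79 to 5.47, 37 counts) in nrpe1-11. The 3 intervals overlapped, and no CMT3 ratio met the rule. The ratio of nrpe1-11 to nrpd1-3, 0.648, had an interval from 0.414 to 1.002. RNA of CMT3 gave 5, 3 and 2 counts.

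The H3K9 methyltransferases held the largest difference among the 8 genes. SUVH4, also called KRYPTONITE, supplies the H3K9 methylation that CMT3 binds. It stood at 3.98 CPM (1.72 to 7.85, 8 counts) in NRO of Col-0, 22.2 CPM (19.2 to 25.6, 196 counts) in nrpd1-3 and 4.29 CPM (3.07 to 5.84, 40 counts) in nrpe1-11. The nrpd1-3 library was far above the others, whose intervals overlapped. The NRO ratio of nrpd1-3 to Col-0 was 5.59 (2.78 to 13.1, log2 ratio 2.40), and 2.06% of the 16083 genes tested had a higher one. Between the mutants the NRO ratio was 0.193 (0.134 to 0.272, log2 ratio -2.30), with 99.6% of genes above it. Against Col-0, nrpe1-11 had a ratio of 1.08 (0.498 to 2.67).

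RNA of SUVH4 gave 7, 8 and 0 counts in Col-0, nrpd1-3 and nrpe1-11. The RNA ratio of nrpd1-3 to Col-0 was 1.21 with a wide interval (0.385 to 3.93), and nrpe1-11 was lowest. With 3 counts in place of 0, nrpe1-11 was 2.39-fold lower than Col-0 and 2.90-fold lower than nrpd1-3. These folds are not lower bounds, because the counting intervals of the ratios, with 0 counts, reached up to 0.678 and 0.539. SUVH4 did not pass the count filter in RNA. The NRO ratio of nrpd1-3 to Col-0 exceeded the RNA ratio by 2.20 on the log2 scale, with a counting interval from 0.418 to 3.99. For every other gene and comparison with counts in all 4 libraries that interval included 0. The SUVH4 gene span overlaps that of AT5G13970, which had 36, 120 and 102 NRO counts and log2 ratios to Col-0 of -0.39 in nrpd1-3 and -0.70 in nrpe1-11. On its other side AT5G13950 had 195, 1118 and 1757 NRO counts and log2 ratios of 0.39 and 0.96. Neither neighbour had the excess of nrpd1-3 over both other libraries, while reads within the overlap may not have been told apart.

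SUVH6, an H3K9 methyltransferase that acts beside SUVH4, stood at 24.9 CPM (18.5 to 32.8, 50 counts) in NRO of Col-0, 15.1 CPM (12.6 to 17.9, 133 counts) in nrpd1-3 and 13.8 CPM (11.6 to 16.4, 129 counts) in nrpe1-11. Col-0 was above both mutants, and the mutants overlapped. Ratios to Col-0 were 0.606 (0.435 to 0.857) and 0.556 (0.398 to 0.787), short of 2-fold, and RNA gave 6, 7 and 5 counts with no such order. Library totals brought the NRO log2 ratios of SUVH6 from -0.71 and -0.83 to -0.19 and -0.11. The SUVH6 span overlaps that of AT2G22730, which went the other way, with 10, 112 and 86 NRO counts. SUVH5, the remaining enzyme of the trio, had 2, 15 and 19 NRO counts and 2, 1 and 2 RNA counts, with Col-0 under the floor.

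**Figure D2:**
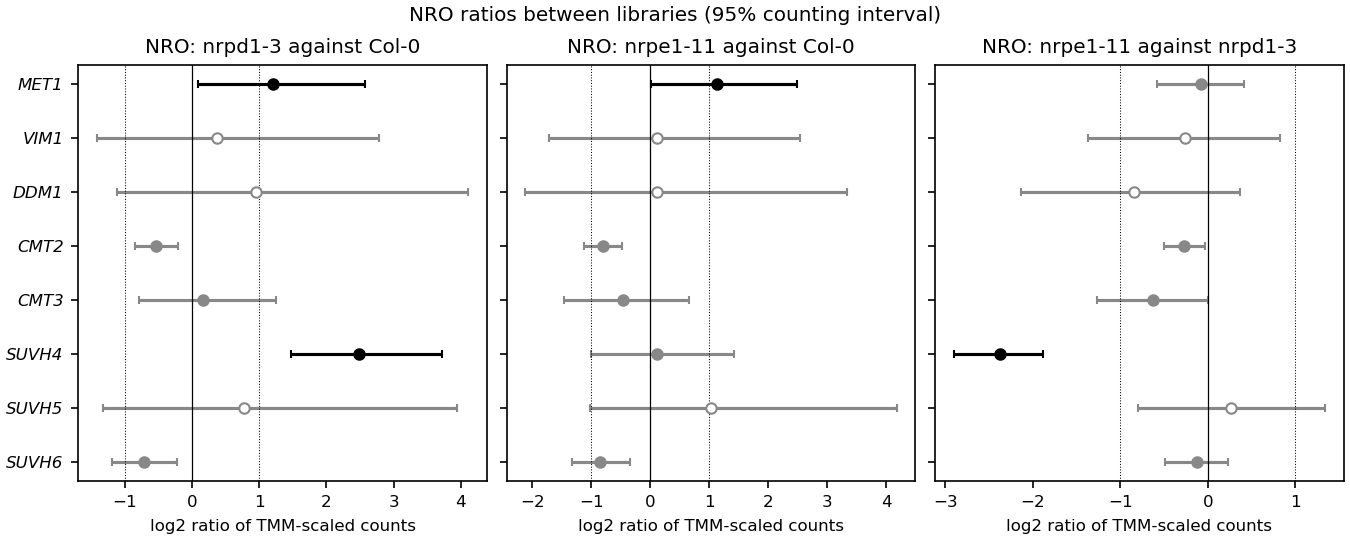
Log2 ratio of TMM-scaled NRO counts (horizontal axis) for each gene in 3 comparisons of libraries, with 95% counting intervals. Black points met the size rule, grey points did not, open points had under 20 counts in each NRO library, and dotted lines mark a log2 ratio of 1 in size. SUVH4 is to the right in nrpd1-3 against Col-0 (ratio 5.59) and to the left between the mutants (ratio 0.193).

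Counting calls over the 8 genes, NRO of nrpd1-3 against Col-0 had 2 genes higher (SUVH4 and MET1) and 0 lower, where 9.31% of all genes tested were higher and 7.05% lower (16.4% in all). NRO of nrpe1-11 against Col-0 had 1 higher (MET1) and 0 lower, where 12.1% were higher and 11.1% lower (23.2% in all). NRO of nrpe1-11 against nrpd1-3 had 1 lower (SUVH4) and 0 higher, where 4.65% were lower and 3.35% higher (8.00% in all). In RNA, where CMT2 was the only gene of the 8 that could be called, 0 met the rule. Over all genes tested in RNA, 6.04% were higher and 13.8% lower in nrpd1-3 than in Col-0 (19.8% in all). The shares were 12.9% and 20.6% (33.5% in all) for nrpe1-11 against Col-0, and 5.10% and 4.82% (9.92% in all) for nrpe1-11 against nrpd1-3. MET1, CMT3 and SUVH4 passed the count filter only through the mutant libraries, with 7, 11 and 8 counts in the shallower Col-0 library, so nothing is read from these counts of higher genes or from the median. The median log2 ratio of the 5 tested genes was 0.155 in NRO of nrpd1-3 and -0.44 in NRO of nrpe1-11, beside 0.029 and 0.040 over all genes tested. Both mutants are set against the same Col-0 libraries, so their values are given side by side and not as separate evidence.

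The genes were also compared within a library, as each gene's share of the counts of all 8, which does not depend on scaling between libraries. SUVH4 took 4.17% of 192 counts in NRO of Col-0 (exact binomial interval 1.82 to 8.05), 23.6% of 832 in nrpd1-3 (20.7 to 26.6) and 6.56% of 610 in nrpe1-11 (4.73 to 8.82). Its share in nrpd1-3 was above both others beyond counting error. In RNA it took 11.3% of 62 counts, 15.7% of 51 and 0 of 39, where 3 counts would be 7.69% and the exact binomial interval reaches 9.025%. MET1 took 3.65% of NRO counts in Col-0 (1.48 to 7.37), 8.53% in nrpd1-3 (6.73 to 10.6) and 11.6% in nrpe1-11 (9.20 to 14.5), and 1.61%, 9.80% and 17.9% of RNA counts. Col-0 had the lowest MET1 share in each assay. CMT2 took 56.8%, 39.5% and 47.4% of NRO counts and 66.1%, 49.0% and 51.3% of RNA counts, highest in Col-0 in both assays. The shares of a library sum to the whole, so a higher share of SUVH4 lowers that of CMT2 by itself. A lower CMT2 share is therefore not a separate view of the CMT2 level.

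**Figure D3:**
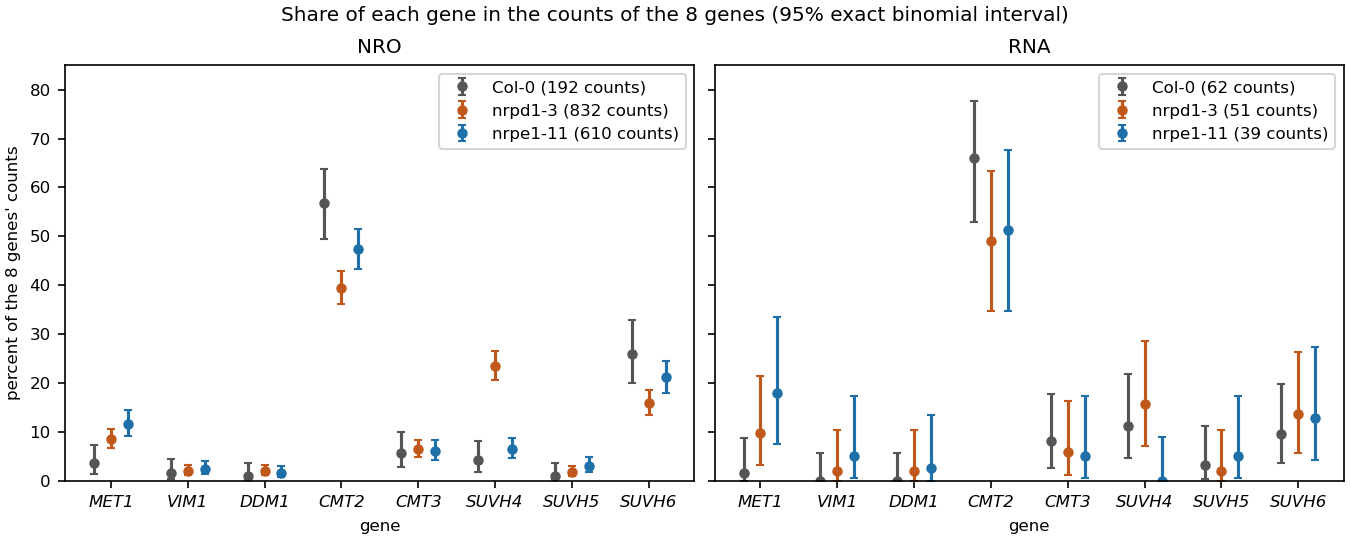
Share of each gene in the counts of the 8 genes (vertical axis, percent) in NRO (left) and RNA (right), coloured by genotype, with 95% exact binomial intervals; legends give the counts behind each library. CMT2 holds the largest share in every library, and SUVH4 reaches 23.6% in NRO of nrpd1-3.

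Summed over the 8 genes, the libraries of Col-0, nrpd1-3 and nrpe1-11 stood at 95.6, 94.4 and 65.4 CPM for NRO, and at 119, 104 and 73.3 CPM for RNA. On this scaling the total was lowest in nrpe1-11 in each assay, with ratios to Col-0 of 0.685 (0.581 to 0.810) in NRO and 0.615 (0.401 to 0.932) in RNA. In nrpd1-3 the NRO ratio of 0.988 (0.844 to 1.16) combined a higher SUVH4 with a lower CMT2. Without these 2 genes the NRO sums of the other 6 were 37.3, 34.8 and 30.1 CPM, and both intervals of the ratio to Col-0 included 1. These sums turn on scaling. With library totals the 8 genes stood at 71.45, 101.6 and 81.3 CPM in NRO, lowest in Col-0, and the ratio of nrpe1-11 to Col-0 was 1.14 (0.966 to 1.35). In RNA they stood at 87.3, 132.1 and 79.1 CPM, with a ratio of 0.906 (0.591 to 1.37). The sums of the other 6 genes were then above Col-0 in NRO by 1.34 in each mutant, with intervals that left out 1. The 3 H3K9 methyltransferases together stood at 29.9, 39.0 and 20.2 CPM in NRO, and the ratio between the mutants was 0.517 (0.430 to 0.619), or 0.596 with library totals.

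The only test came from edgeR's quasi-likelihood fit over the 6 libraries, additive in assay and genotype. It treats NRO and RNA as repeat views of a genotype, so its spread is the disagreement between assays and not the spread between plants. With an infinite prior that spread was shared over genes, and a gene's own disagreement had no weight in its SE or p. This holds for SUVH4, whose NRO and RNA ratios of nrpd1-3 to Col-0 differed by 2.20 on the log2 scale. SUVH4 rose in nrpd1-3 against Col-0 with a log2 fold change of 1.71 ± 0.477 (SE computed from the test statistic, edgeR adjusted p = 0.00708). It was the only one of the 8 genes called in that comparison, where 3.89% of 14530 genes were higher and 5.34% lower (9.23% in all), and 5 of the 8 could be tested. SUVH4, MET1 and CMT3 entered the model only through the NRO libraries of the mutants, so the filter was not independent of a rise. Nothing is read from the number of calls. SUVH4 was lower in nrpe1-11 than in nrpd1-3 by -2.50 ± 0.406 (edgeR adjusted p = 9.17e-07), again the only call, where 1.67% of genes were lower and 0.461% higher (2.13% in all). CMT2 fell in nrpe1-11 against Col-0 by 0.98 ± 0.283 on the log2 scale (edgeR adjusted p = 0.00509), the only call, where 11.5% of genes were lower and 6.94% higher (18.5% in all). The other genes with fitted values did not pass: MET1 had 1.43 ± 0.638 in nrpd1-3 and 1.37 ± 0.638 in nrpe1-11 (edgeR adjusted p = 0.155 and 0.126), and SUVH6 -0.55 ± 0.378 and -0.81 ± 0.378 (edgeR adjusted p = 0.432 and 0.125). CMT3 stood at -0.06 and -0.75.

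The calls depended on tool and library. DESeq2 with the same terms called none of the 8 genes, with adjusted p of 0.711 for SUVH4 in nrpd1-3, 0.392 for SUVH4 between the mutants and 0.17 for CMT2 in nrpe1-11, while it called 277, 3 and 932 of all genes in these comparisons. Its log2 fold changes for them were 1.38, -2.66 and -0.98. At an unadjusted p under 0.05 DESeq2 had 0, 1 and 1 of the 8. Without the Col-0 NRO library, Col-0 was held by its RNA library alone, and the fitted SUVH4 value in nrpd1-3 was -0.02. That fit still drew on NRO of the mutants, and the RNA log2 ratio itself was 0.22 (prior count 2). Without the NRO library of nrpd1-3 or of nrpe1-11, SUVH4 no longer passed the count filter. Between the mutants its fitted value lay between -2.66 and -2.25 in every setting that gave one. CMT2 in nrpe1-11 was -0.21 with library totals and lost its call without the NRO library of either mutant (-0.80 without nrpd1-3, -1.03 without nrpe1-11) or the RNA library of nrpe1-11 (-0.86).

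Nascent and steady-state RNA were then set against each other, with genotype as a block. CMT2 was lower in NRO than in RNA by -0.67 ± 0.248 on the log2 scale (edgeR adjusted p = 0.0301), the only call among the 5 genes tested, where 9.88% of all genes were lower and 16.7% higher (26.6% in all). The call was lost under 9 of 10 alternatives, DESeq2 among them (adjusted p = 0.171), with values from -0.93 to -0.43. Ratios by genotype used TMM factors of all 6 libraries together, so they do not follow from the CPM above. By genotype, the NRO to RNA ratio of CMT2 was 0.578 (0.400 to 0.850) in Col-0, 0.614 (0.409 to 0.963) in nrpd1-3 and 0.712 (0.453 to 1.18) in nrpe1-11, with overlapping intervals. SUVH4 had a ratio of 0.249 (0.0788 to 0.805) in Col-0 and 1.14 (0.569 to 2.69) in nrpd1-3. The ratio of nrpe1-11, with 40 NRO counts and no RNA count, was 0.657 when 3 counts were put in place of 0. Its counting interval, with no RNA count, began at 0.510.

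CMT2 alone had enough counts in both assays for a search for genes of like pattern. Over the 6 libraries, the smallest distances between centred log2 CPM profiles were those of AT2G39580 (0.259) and FAB1B (AT3G14270, 0.386), a phosphatidylinositol phosphate kinase, among 1220 genes with a median distance of 1.97. AT2G39580 had 504, 1367 and 1177 NRO counts and 181, 93 and 90 RNA counts in the order of genotypes used above. FAB1B had 240, 868 and 620 NRO counts and 75, 53 and 40 RNA counts. The profiles share the library depths of these 6 libraries.

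The rest of the pathway was followed in gene lists. Of 16 paralogs of the 8 genes, 7 (VIM5, MET2b, MET3, CMT1, SUVH7, SUVH8 and SUVH10) had 0 counts in all 6 libraries. The model tested 4 paralogs and called none in either mutant or between them. For VIM6, a relative of VIM1, the NRO libraries gave 8, 21 and 13 counts, and nrpe1-11 was lower than Col-0 by the size rule (log2 ratio -1.34), where 11.1% of all genes were. SUVH9, a catalytically inactive relative that recruits Pol V to methylated DNA, had 6, 6 and 22 RNA counts and 55, 250 and 236 NRO counts. It was higher in RNA of nrpe1-11 than of Col-0 by the size rule (log2 ratio 1.55), where 12.9% of all genes were, and its NRO values did not meet the rule. SUVH9 passed the RNA count filter only through the nrpe1-11 library, so nothing is read from that call.

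Among 13 genes of heterochromatin structure and silencing, 11 were tested. In nrpd1-3 the model called 1 of them, lower, and in nrpe1-11 it called 4, of which 1 was higher and 3 were lower, where 9.23% and 18.5% of all genes were called. MORC2, an ATPase of silencing, fell in both mutants, by 1.53 ± 0.391 and 2.15 ± 0.407 on the log2 scale (edgeR adjusted p = 0.00249 and 3.8e-06), from 63, 100 and 67 NRO counts and 9, 2 and 3 RNA counts. MORC1 fell in nrpe1-11 by 1.13 ± 0.42 and the H3K27 monomethyltransferase gene ATXR5 by 1.54 ± 0.551 (edgeR adjusted p = 0.0416 and 0.0311). HTA7, a gene of the heterochromatic histone variant H2A.W, rose in nrpe1-11 by 1.24 ± 0.466 (edgeR adjusted p = 0.0445). HTA7 passed the model's count filter only through the NRO libraries of the mutants. The RNA log2 ratios of ATXR5 and HTA7 in nrpe1-11 were -0.42 and -0.02, from too few counts for the rule. Without the Col-0 NRO library their fitted values turned to 0.44 and 0.12. The MORC2 calls were lost there too, at values as large as before (-1.57 in nrpd1-3 and -2.21 in nrpe1-11), and that of MORC1 at -0.75. Over 10 alternatives the call of MORC1 was kept in 1, with values from -1.20 to -0.32, and those of MORC2 in 5 and 7.

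Of 4 genes that counteract methylation or control the histone demethylase gene IBM1, 4 were tested and ROS1 was the only call, lower in each mutant (log2 fold changes of -2.87 ± 0.413 and -2.14 ± 0.384, edgeR adjusted p = 1.09e-09 and 8.57e-07), where 5.34% and 11.5% of all genes were lower. ROS1, the glycosylase that removes methylcytosine, had 58, 41 and 72 NRO counts and 22, 1 and 4 RNA counts. IBM1, which removes H3K9 methylation from genes, had 78, 288 and 302 NRO counts and 20, 23 and 18 RNA counts and was not called.

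All 7 genes of the methyl donor cycle were tested, of which 2 were called lower in nrpd1-3, and in nrpe1-11 there were 2 lower calls and 1 higher. Of all genes, 5.34% were lower in nrpd1-3, and 11.5% were lower and 6.94% higher in nrpe1-11. The S-adenosylmethionine synthase genes SAM1 (-0.97 ± 0.283 in nrpd1-3, edgeR adjusted p = 0.0115) and SAM2 (-1.09 ± 0.309 in nrpe1-11, edgeR adjusted p = 0.00436) fell in 1 mutant each. SAHH2, a gene for the hydrolase that clears the product of methylation, fell in both (-0.98 ± 0.339 and -0.93 ± 0.334, edgeR adjusted p = 0.044 and 0.0337). The methionine synthase gene ATMS1 rose in nrpe1-11 by 1.04 ± 0.321 (edgeR adjusted p = 0.0101). Of 10 alternatives the SAHH2 calls were kept in 1 in each mutant, with values as small as -0.37 and -0.13 and DESeq2 adjusted p of 0.728 and 0.534. The calls of SAM1, SAM2 and ATMS1 were kept in 3, 4 and 5.

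Chromatin assembly factor 1, which loads histones onto newly made DNA, had 1 of 3 genes called higher in each mutant, where 3.89% and 6.94% of all genes were. FAS1, its large subunit, had 4, 77 and 69 NRO counts and 1, 5 and 7 RNA counts, and rose by 2.18 ± 0.703 in nrpd1-3 and 1.996 ± 0.711 in nrpe1-11 (edgeR adjusted p = 0.0269 and 0.031). MET1 had a like row of counts, with 7, 71 and 71 in NRO and 1, 5 and 7 in RNA. The NRO sum of FAS1, FAS2 and MSI1 was 7.96, 22.8 and 21.0 CPM, with ratios to Col-0 of 2.86 (1.72 to 5.11) and 2.64 (1.59 to 4.71). All 3 genes passed the count filters only through the NRO libraries of the mutants, with 4, 2 and 10 NRO counts in Col-0. Nothing is therefore read from the number of calls in this list or from its median. Of 8 alternatives the FAS1 calls were kept in 4 in nrpd1-3 and 2 in nrpe1-11, with values from 2.05 to 2.77 and from 1.88 to 2.77. DESeq2 called FAS1 in neither mutant (log2 fold changes of 2.205 and 2.125). When the NRO library of Col-0 was left out, the FAS1 values were 2.64 and 2.42. In the same model 3 of 6 mesophyll markers (RBCS1A, RBCS3B and GAPA) fell in nrpd1-3 and 1 (RBCS3B) in nrpe1-11, where 5.34% and 11.5% of all genes were lower. Of 10 alternatives the nrpd1-3 calls were kept in 4 (RBCS1A), 8 (RBCS3B) and 1 (GAPA), and that of RBCS3B in nrpe1-11 in 3. These markers' part in the results was not tested.

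**Figure D4:**
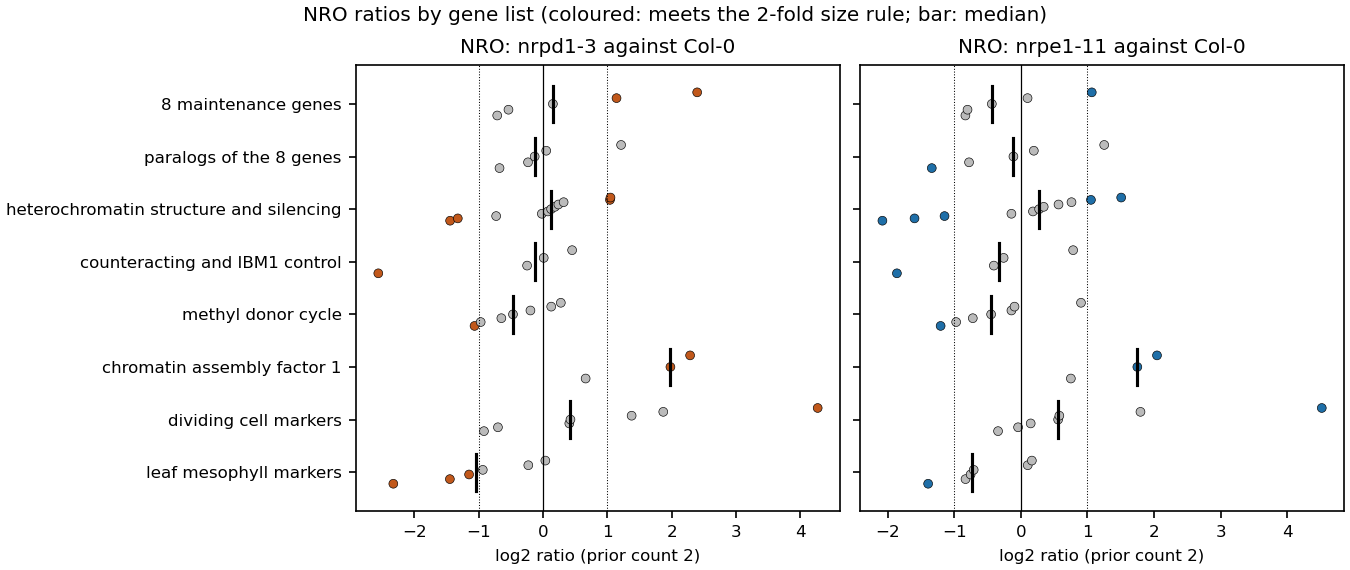
Log2 ratio of NRO to Col-0 (horizontal axis, prior count 2) for each gene that passed the count filter, by gene list, in nrpd1-3 (left) and nrpe1-11 (right). Coloured points met the 2-fold size rule, grey points did not, and black bars are list medians. Chromatin assembly factor 1 has the highest list medians, 1.98 and 1.75, and the single point past 4 in each panel is the dividing-cell marker CDKB2;1, with 0 counts in Col-0. The genes of that factor and CDKB2;1 passed the filter only through the mutant libraries, so nothing is read from their position.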

How the data were processed

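The authors deposited raw read counts per gene. The submitters' processing notes name Trimmomatic 0.33, TopHat2 2.1.0, HTSeq and TAIR10. The HTSeq version, annotation release, strand setting and counting mode are not given in the sources used here. Overlapping or antisense genes may share reads. Reads that aligned more than once were assigned to no gene. Reads in no gene (18.6% to 31.0% of uniquely aligned reads) stayed out of library sizes, and all 279 organelle genes were at 0. The 3 samples of Pol II chromatin were not analysed here. Gene names and order came from RefSeq (assembly TAIR10.1, 31912 of 32399 nuclear genes matched).

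For levels and for ratios within an assay, TMM factors were computed per assay in edgeR 4.0.16 (R 4.3.3, limma 3.58.1) on genes with 20 or more counts in any library. The NRO to RNA ratios, the pattern search and the additive model used TMM factors of all 6 libraries together. Those came from genes with 20 or more counts in at least 2 libraries. Ratio intervals are exact conditional binomial, level intervals exact Poisson (95%). The additive model took 14530 genes with 20 or more counts in at least 2 of 6 libraries, with Benjamini-Hochberg adjustment over all of them at 0.05. It had 2 residual degrees of freedom, an infinite prior and a common biological coefficient of variation of 0.183. Both procedures were run on simulated counts drawn under their own assumptions, with the same genotype effect in each assay. Such counts cannot show how the procedures behave under disagreement between assays or spread between plants. Alternatives were library totals, DESeq2 1.42.0 and its size factors, other filters and prior counts, thinning (a random draw, not repeated), no block, and leaving out each library. Library totals for the summed counts were added after seeing the data.

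The 8 genes, the lists and the tests were chosen with earlier results of these data known. List genes are named when the model calls them or when both assays meet the size rule in 1 direction. SUVH9, VIM6, CDKB2;1, CYCB1;1, IBM1, COBL9, AG and the neighbouring genes were named after their values were seen.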

Additional observations from a re-analysis of the deposited data

How the results depend on the processing

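No paired analysis was possible because each assay and genotype had 1 library and the labels give no replicate numbers. SUVH4 kept its size-rule calls in NRO under all 6 alternatives, with log2 ratios of 2.37 to 2.88 in nrpd1-3 against Col-0 and -2.35 to -2.10 between the mutants. Of the 8 genes, the count meeting the size rule changed as follows. Thinning to equal totals gave 1 in NRO of nrpd1-3 against Col-0, 0 in NRO of nrpe1-11 against Col-0, and 1 (CMT2) in RNA of each mutant against Col-0. DESeq2 size factors gave 0 in NRO of nrpe1-11 against Col-0. Prior count 0.5 gave 1 (CMT2) in RNA of nrpe1-11 against Col-0, and no filter gave 1 (SUVH4) there and 1 (SUVH4) between the mutants. In the model, library totals gave 2 (SUVH4 and MET1) in nrpd1-3, 1 in nrpe1-11 that was MET1 (2.16) and not CMT2, and 0 between assays. DESeq2 and the fit without a block gave 0 in all 4 comparisons, with 0, 1, 1 and 1 genes (DESeq2) and 0, 0, 1 and 0 (edgeR without a block) at an unadjusted p under 0.05, while the model itself had 3, 3, 1 and 1. No filter gave 0 between assays. Leaving out 1 library gave 0 to 1 in nrpd1-3 against Col-0, 0 to 2 in nrpe1-11 against Col-0 (2 without RNA of Col-0, SUVH6 and CMT2), 0 to 1 between the mutants and 0 to 1 between assays. Without the Col-0 NRO library the fitted value of SUVH4 in nrpd1-3 reversed to -0.0187 and that of ATXR5 in nrpe1-11 to 0.438. These fits still drew on NRO of the mutants, and the RNA log2 ratios themselves were 0.22 and -0.42. Leaving out each library in turn gave ranges of -0.0187 to 2.48 for SUVH4 and -2.42 to 0.438 for ATXR5. A lone library left by such a fit is assumed to vary like the others, and the causes were not tested.

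Library totals raised the median log2 ratio of all genes by 0.502 and 0.702 in NRO and 0.741 and 0.52 in RNA of nrpd1-3 and nrpe1-11 against Col-0, and by 0.202 and -0.215 between the mutants, and moved the share of higher calls from 56.9% to 91.3%, 52.2% to 91.7%, 30.5% to 89.5%, 38.5% to 70.8%, 41.9% to 67.2% and 51.4% to 23.9%. Over all genes, the model's calls went from 1341, 2686, 310 and 3865 in nrpd1-3, nrpe1-11, between the mutants and between assays to 277, 932, 3 and 1929 with DESeq2 and to 0, 0, 0 and 1056 without a block (617, 1220, 97 and 3693 at an unadjusted p under 0.05), and the first 3 to 2567, 4866 and 87 with library totals. Leaving out 1 library gave 65 to 2231 in nrpd1-3, 8 to 1240 between the mutants and as few as 410 in nrpe1-11 and 1745 between assays. Depth limits RNA most: a gene of the 8 needed 20 counts for a call there, and 7 of 8 had at most 8.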
